A study of Mus musculus with 6 samples.

Results

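Hepatic mRNA levels of 33 complement components and regulators were examined in mouse liver. The genes were taken by symbol from the 24421 genes of the deposited table, and all 33 were found. The libraries came from livers of 21-week-old C57BL/6 mice with free access to food, 3 wild-type (WT) and 3 heterozygous for a null allele of *Pai-1* (*Pai-1*+/-). The paper places the mice at 20 weeks, describes both genotypes as male littermates on standard chow, and obtained the heterozygotes by crossing *Pai-1*-/- with WT animals, so every cell of the mouse carries the genotype. Livers were flushed with saline before RNA was taken. The study asked whether hepatic gene expression differs between these genotypes. That comparison is not made here, because the deposited counts per animal carry animal numbers that match no sample label and no column could be given to a genotype. The values below are therefore the authors' mean over the 6 libraries, both genotypes together, as counts over size factors, here named mean normalized counts. They carry no SD and no n, and no difference between genes was tested. The counts per animal were not used, so the depth of each library and the spread between animals are not given. The genotype labels could not be checked against expression.

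Complement is a cascade of plasma proteins that marks microbes and damaged cells. Recognition proteins (C1q, the mannose-binding lectins and ficolins) activate serine proteases, the proteases assemble convertases that cleave C3 and then C5, and the terminal proteins C5 to C9 build a pore in the target membrane, while soluble and membrane-bound regulators keep host cells safe. Hepatocytes secrete most of the circulating components. The 3 chains of C1q are an exception, since macrophages make them, in liver the Kupffer cells. Sources were assigned from this textbook knowledge, though with earlier results of these data known. Of the genes, 20 were taken as made by hepatocytes. Among these, 4 (*C3*, *Clu*, *Serping1* and *C1ra*) were marked as also made by other cell types, and this marking may leave out others. A further 7 were taken as made by macrophages and other myeloid cells (*C1qa*, *C1qb*, *C1qc*, *Fcna*, *Cfp*, *C3ar1* and *C5ar1*). The other 6 were taken as made elsewhere or with no main source (*C7*, *Cfd*, *Cd55*, *Cd59a*, *Cd46* and *Cr1l*). In whole liver, the number of cells of a type and the RNA per cell cannot be told apart.

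The stretch before the start site is shown for 5 of the genes on which the comparisons below turn. *C3* is the highest gene of the group, *C8a* and *C8b* are neighbours that encode chains of 1 protein, *C7* is far lower than its neighbour *C6*, and *C1qb* stands for the macrophage genes. Each line gives the 250 bases before the RefSeq start (GRCm38.p6), 5′ to 3′ on the gene's own strand, with matches to 4 short motifs in capitals, searched on both strands. The TATA box was searched as the letters TATAAA. For the hepatocyte factor HNF1 the letters were GTTAAT, which are part of its site. For C/EBP factors the letters were TTGCNNAA, and for the PU box of the myeloid factor PU.1 they were GAGGAA. In these 5 windows no match overlapped another.
*C3*, chr17:57228137-57228386, minus strand: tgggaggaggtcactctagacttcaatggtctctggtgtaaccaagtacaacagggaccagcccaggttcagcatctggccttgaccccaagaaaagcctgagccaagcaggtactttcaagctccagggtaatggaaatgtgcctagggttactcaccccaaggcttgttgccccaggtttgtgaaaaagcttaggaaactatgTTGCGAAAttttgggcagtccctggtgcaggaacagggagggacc
*C8a*, chr4:104876399-104876648, minus strand: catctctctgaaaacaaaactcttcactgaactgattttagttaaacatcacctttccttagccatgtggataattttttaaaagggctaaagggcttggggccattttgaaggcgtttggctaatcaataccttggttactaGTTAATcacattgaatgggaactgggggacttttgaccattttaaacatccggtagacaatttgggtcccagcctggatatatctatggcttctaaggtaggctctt
*C8b*, chr4:104766067-104766316, plus strand: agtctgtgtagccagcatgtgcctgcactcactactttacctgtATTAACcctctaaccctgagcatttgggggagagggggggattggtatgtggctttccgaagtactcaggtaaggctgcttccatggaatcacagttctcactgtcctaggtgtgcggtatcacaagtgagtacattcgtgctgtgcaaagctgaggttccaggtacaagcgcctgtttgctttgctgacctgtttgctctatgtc
*C7*, chr15:5063774-5064023, minus strand: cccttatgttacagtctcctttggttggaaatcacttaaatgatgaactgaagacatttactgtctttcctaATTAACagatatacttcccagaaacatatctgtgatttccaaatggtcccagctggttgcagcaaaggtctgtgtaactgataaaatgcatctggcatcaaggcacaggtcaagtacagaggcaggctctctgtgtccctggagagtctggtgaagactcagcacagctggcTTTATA
*C1qb*, chr4:136886201-136886450, minus strand: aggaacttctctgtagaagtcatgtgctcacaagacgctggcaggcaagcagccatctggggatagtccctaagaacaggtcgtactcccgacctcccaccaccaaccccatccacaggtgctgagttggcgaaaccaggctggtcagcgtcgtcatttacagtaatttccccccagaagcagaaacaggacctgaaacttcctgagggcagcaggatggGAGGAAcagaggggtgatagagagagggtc

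The C/EBP-type match of *C3* begins 45 bases before its start. *C8a* and *C8b* each hold the HNF1-type motif, 107 and 206 bases upstream. *C1qb* holds the PU box 30 bases upstream, and the window of *C1qc* also holds one. Part of the *C1qc* window lies inside its GENCODE gene, which begins at 136893065. *C7* holds the HNF1-type motif and, directly before the RefSeq start, the letters TATAAA on the opposite strand, printed as TTTATA. The GENCODE gene of *C7* begins at 5063740, downstream of that RefSeq start. The HNF1-type matches of *C8b* and *C7* also lie on the opposite strand. The windows of *C6* and of *C8g*, the remaining chain of C8, hold none of the 4 motifs. RefSeq windows were found for 25 of the 33 genes. Among them the HNF1-type motif occurred in 5 of 13 hepatocyte-made and 1 of 6 macrophage-made genes, against 6.43% of 32841 mouse promoter windows of the same length. The PU box occurred in 0 of 13 hepatocyte-made and 3 of 6 macrophage-made genes, against 23.3% of all windows. The C/EBP-type motif occurred in 3 of 13 and 0 of 6, against 9.57%, and the TATA box in 1 of 13 and 1 of 6, against 12.4%. A match describes the letters only, and no binding was measured.

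All 33 complement genes had a mean normalized count above 10, and 28 were above 100. Together they took 2.27% of the 30045982 mean normalized counts of the table. Of the counts of these 33 genes, *C3* alone held 49.4%, and *C3* with *Clu* held 57.2%. The hepatocyte-made genes held 99.0% of the group's counts and the macrophage-made genes 0.598%. Of all counts in the table the hepatocyte-made genes took 2.25%, and 0.820% without the 4 marked as also made by other cell types. Because longer transcripts give more reads, genes are compared from here on as mean normalized count per kilobase (kb) of the longest annotated coding transcript, or of the longest transcript where none is coding. On this scale the median complement gene had 2273 per kb, against 137 per kb for the 12499 genes of the table that were above the minimum of 10 and had an annotated length, and it was higher than 93.7% of them. The highest and lowest members, *C3* and *Cd46*, differed 30367-fold, and 5444-fold when divided by coding length. The plot of the genes by role shows this range.

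**Figure D1:**
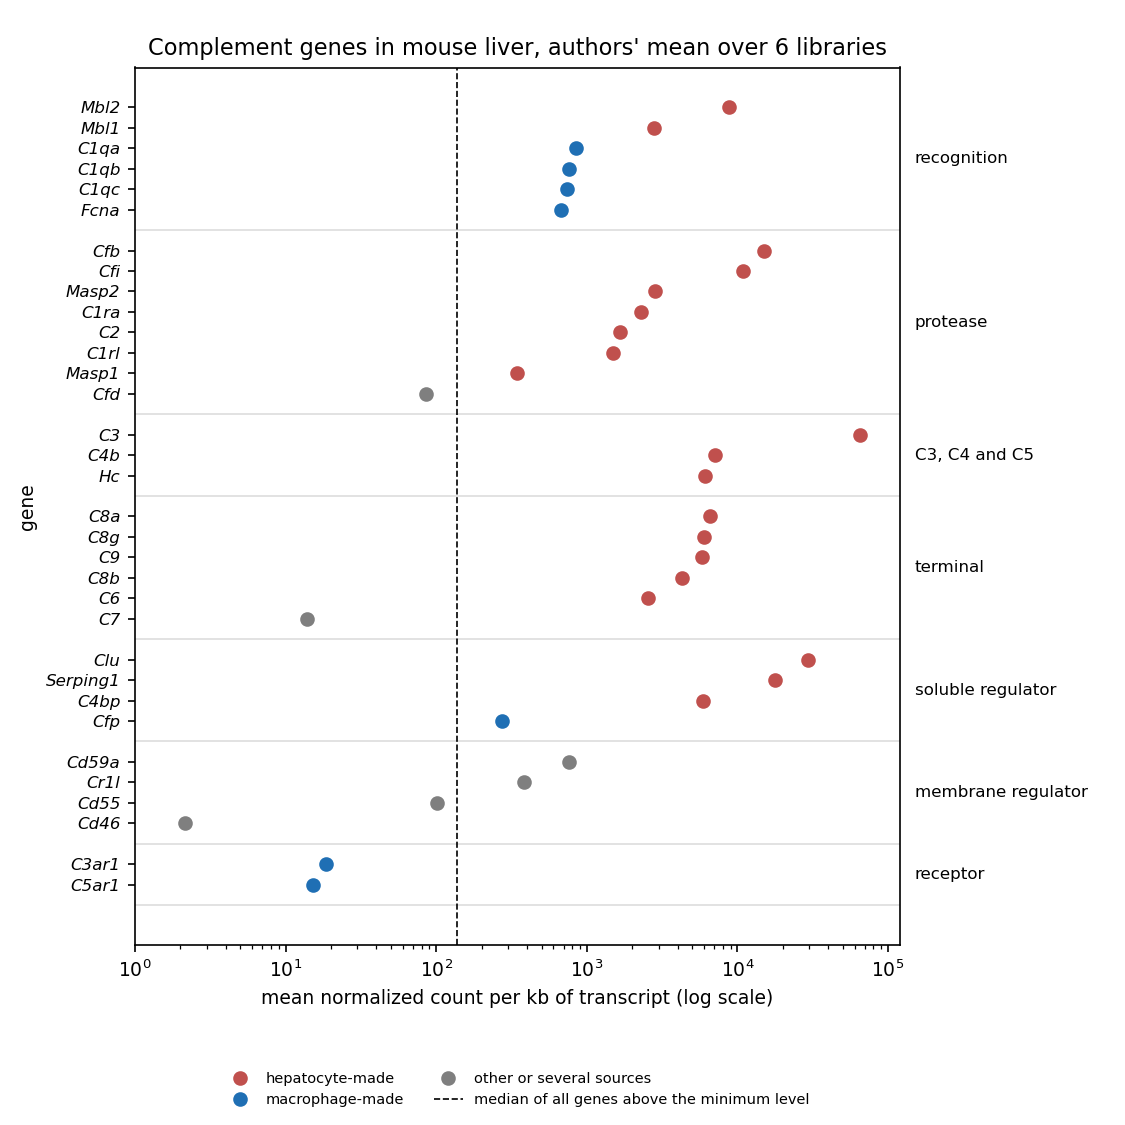
Mean normalized count per kb of transcript (horizontal, log scale) of the 33 complement genes (vertical), grouped by role and coloured by the cell type taken as their source. Each point is the authors' mean over 6 libraries, without an error, and the dashed line is the median of all genes above the minimum, 137 per kb. *C3* stands at 65491 per kb, and 6 genes lie left of the line.

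The hepatocyte-made genes lay high in the liver transcriptome as a group. Their median was 5977 per kb, and 19 of the 20 were among the top 10% of genes. The exception was *Masp1*, a protease of the lectin pathway, with 346 per kb. The macrophage-made genes had a median of 676 per kb, 8.84 times lower than the hepatocyte-made median, and 0 of the 7 were in the top 10%. On this scale *Masp1* was also the one hepatocyte-made gene below the highest macrophage-made gene, *C1qa*. Undivided, the order was reversed, with a mean normalized count of 1848 for *Masp1*, 874 for *C1qa* and 929 for *Fcna*. Among the 6 genes with other or several sources, the median was 93.7 per kb.

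**Figure D2:**
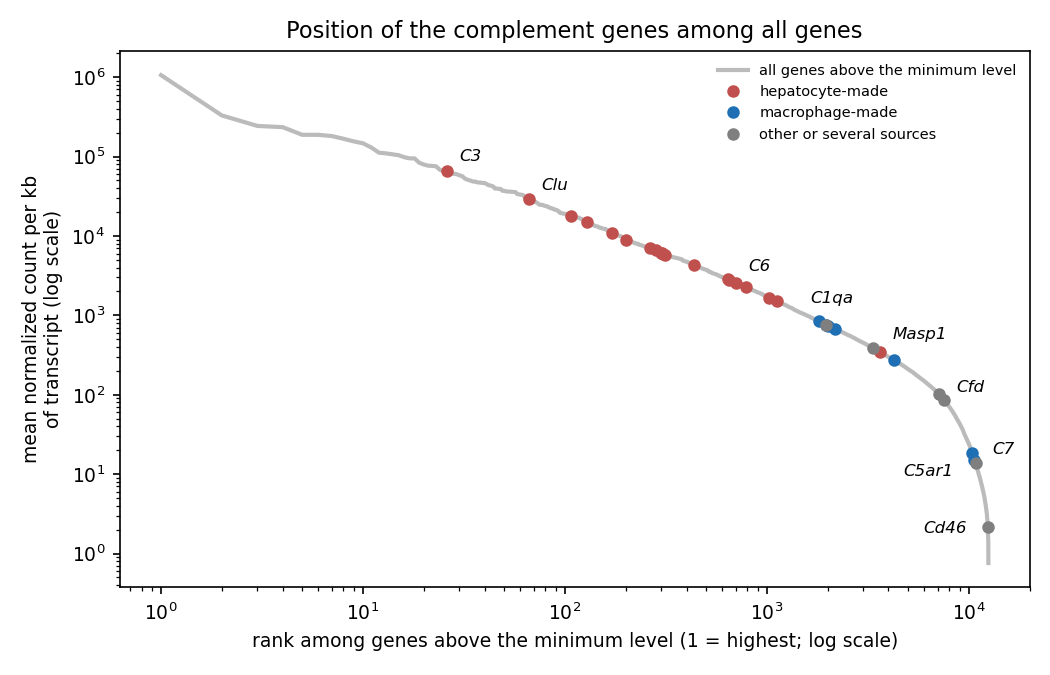
Mean normalized count per kb of transcript (vertical, log scale) against rank (horizontal, log scale) for the 12499 genes above the minimum (grey line), with the complement genes as points coloured by source. *C3* ranks 26 and *Clu* 66, the C1q chains rank between 1809 and 2012, and *Cd46* ranks 12421.

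Among the recognition proteins, the hepatocyte-made lectins were higher than the macrophage-made chains and ficolin. The mannose-binding lectins, which bind sugars on microbial surfaces, comprised *Mbl2* at 8816 per kb and *Mbl1* at 2781 per kb, with a ratio of 3.17. *C1qa*, *C1qb* and *C1qc*, which encode the chains of C1q and lie side by side within 18.7 kb on the minus strand of chromosome 4 (136880129 to 136898803), had 841, 759 and 736 per kb. The highest of these exceeded the lowest 1.14-fold. *Fcna*, the ficolin that mouse macrophages make, stood close to them at 676 per kb, 0.919 times the level of *C1qc*, but 1.48 times with merged exons and 1.05 times undivided. *C3* was 89.0 times higher than *C1qc*, and between 56.2 and 380.0 times higher under the other lengths.

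The proteases covered a wide range. *Cfb* (factor B, the protease of the alternative convertase) had 14966 per kb and *Cfi* (factor I, which degrades C3b and C4b) 10902 per kb. The proteases that start the classical and lectin pathways were lower, with *Masp2* at 2846, *C1ra* at 2273 and *Masp1* at 346 per kb, and *C1rl*, a C1r-like protease, had 1502 per kb. *C2*, the protease of the classical and lectin convertase, had 1671 per kb and was 8.96 times lower than its neighbour *Cfb*. Both genes lie side by side within 41.9 kb of chromosome 17 (34856374 to 34898265). *Cfd* encodes factor D, which activates factor B and is made chiefly by fat cells. Its level was 85.9 per kb, 174 times below that of *Cfb*, or 520 times undivided. The 4 adipocyte markers *Adipoq*, *Retn*, *Plin1* and *Lep* had between 0.266 and 6.09 per kb, so *Cfd* was 14.1 times higher than *Adipoq*, the highest of them.

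Several protease values are uncertain because reads could have been shared, and whether reads were counted by strand is not given in the sources used here. The longest coding transcript of *Masp2* overlaps exons of *Tardbp* on the opposite strand, and 56.0% of its 75-base windows, the length of the reads, also occur there. Of *Cfb* and *C2*, 81.2% and 55.6% of the windows also occur in *Gm20547*, an annotated transcript that runs through both genes. Unlike *Tardbp*, *Gm20547* is not among the genes of the deposited table, so no reads were counted under that name. Whether the overlap changed the values of *Cfb* and *C2* was not tested. *C1ra* shares 40.1% of its windows with its duplicate *C1rb*. None of the windows of *C3*, *C6*, *C7*, *C9*, the C1q or C8 chains occurred in another gene.

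*C3*, the protein on which all activation routes converge, was the highest complement gene at 65491 per kb and ranked 26 among all genes. Its relatives *C4b*, which forms the classical convertase with C2, and *Hc*, which encodes C5, had 7112 and 6125 per kb. *C3* was 9.21 times higher than *C4b* and 10.7 times higher than *Hc*, while *C4b* and *Hc* differed 1.16-fold. *C4b* shares 23.5% of its windows with *C4a*, which had 192 per kb of a transcript annotated as noncoding, so reads could have been split between these copies.

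The terminal genes other than *C7* lay between 2538 and 6580 per kb. *C8a* had 6580, *C8g* 6037, *C9* 5802, *C8b* 4309 and *C6* 2538 per kb, beside 6125 per kb for *Hc*. *C8a* and *C8b* lie tail to tail within 110 kb of chromosome 4 (104766317 to 104876398), and *C8g*, of the unrelated lipocalin family, on chromosome 2. The 3 chains join in equal numbers in the C8 protein, and their levels per kb differed at most 1.53-fold. *C9*, of which many copies enter 1 pore, had 0.882 times the level of *C8a*, and 0.522 times with coding length and 0.499 times undivided. *C7* stood far below all of these, at 13.9 per kb with a mean normalized count of 37.3. Its neighbour *C6* was 182 times higher, and both lie within 337 kb of chromosome 15 (4727175 to 5063740), on opposite strands. Stromal cells are a known source of C7, and in these libraries the 6 stellate cell and fibroblast markers had between 26.8 and 2366 per kb, so all of them were higher than *C7*.

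**Figure D3:**
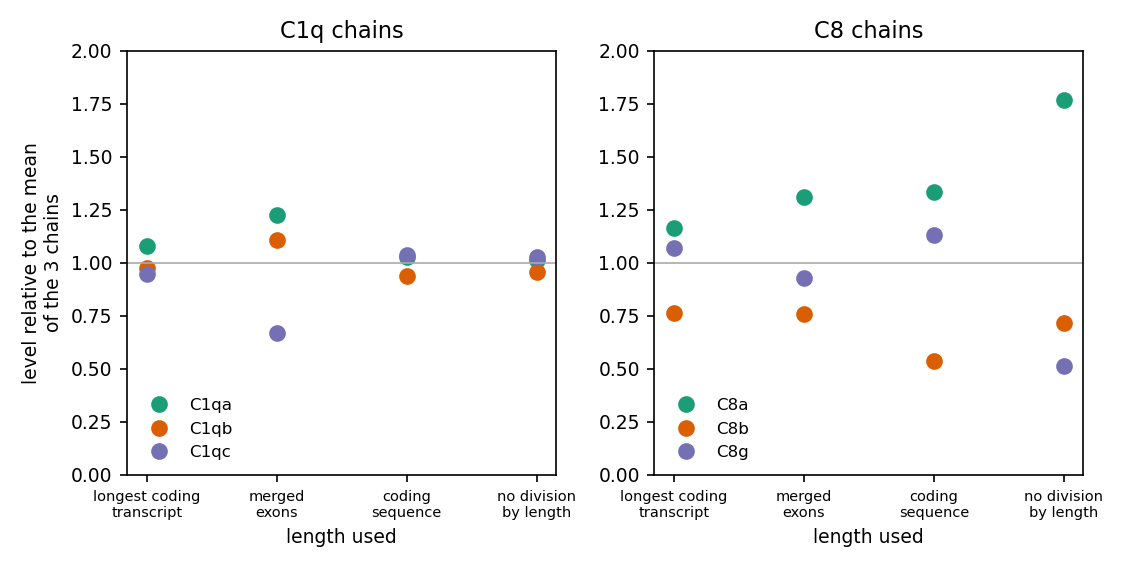
Level of each chain relative to the mean of the 3 chains of its protein (vertical, linear, no unit) for C1q (left) and C8 (right), under 4 choices of the length that counts were divided by (horizontal). The C1q chains lie between 0.945 and 1.08 with the longest coding transcript, whereas the C8 chains spread between 0.516 and 1.77 when counts are not divided by length.

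The spread among the chains depended on the length used. *C8a* has a transcript of 3617 bases and *C8g* one of 1150, so undivided counts placed *C8a* above *C8g* by 23801 to 6942. With the coding length the C8 chains differed 2.48-fold. The C1q chains differed between 1.07-fold and 1.83-fold over the 4 choices, the largest value arising from merged exons, where *C1qc* is assigned 1931 bases.

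Of the 4 soluble regulators, 3 were in the top 10% of genes, and 0 of the 4 membrane regulators were. *Clu* (clusterin, which blocks insertion of the terminal complex) had 29529 and *Serping1* (C1 inhibitor, the serpin that removes C1r, C1s and the MASPs) 17873 per kb, the second and the third highest of the 33 genes. *C4bp*, the C4b-binding protein, had 5917 per kb. *Cfp* (properdin, the myeloid protein that stabilizes the alternative convertase) had 271 per kb. On membranes, *Cd59a*, which blocks the pore, was the highest at 766 per kb, followed by *Cr1l*, the rodent regulator known as Crry, at 384 and *Cd55* (decay-accelerating factor) at 101 per kb. *Cr1l* shares 11.4% of its windows with *Crry-ps*, and *Cd55* shares 10.6% with other genes, mostly *Cd55b*. *Cd46*, which in mice is known mainly from testis, had 2.16 per kb and a mean normalized count of 13.6, the lowest of all. Of its windows, 16.2% also occur in *A330023F24Rik* on the opposite strand.

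Receptors for the activation fragments were scarce. *C3ar1*, the receptor for C3a, had 18.5 per kb and *C5ar1*, the receptor for C5a on neutrophils and macrophages, 15.3 per kb, which placed them above 16.9% and 14.7% of the genes. *C1qc* was 39.8 times higher than *C3ar1*, and between 11.1 and 24.8 times higher under the other lengths. The myeloid genes comprised the secreted *C1qa*, *C1qb*, *C1qc* and *Fcna* at 676 to 841 per kb and the receptors at 15.3 to 18.5 per kb, with *Cfp* between them.

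The labelled tissue was checked against cell markers. Hepatocyte markers lay between 23793 and 1059760 per kb for the 7 of 8 that were matched. The 8 Kupffer cell and macrophage markers lay between 79.6 (*Timd4*) and 1166 (*Cd5l*) per kb with a median of 270. *C1qc* was level with *Clec4f*, the defining Kupffer cell lectin, at 736 and 735 per kb, but 0.624 times as high with merged exons and 0.488 times undivided. *C1qb* exceeded 7 of the 8 markers per kb of transcript. With coding length it was below *Clec4f* as well as *Cd5l*, at 1088 against 1104 and 2248 per kb. Undivided, its mean normalized count of 826 was below those of *Cd5l* (2374), *Clec4f* (1816) and *Csf1r* (1121). Neutrophil markers lay between 3.18 and 138 per kb for the 4 of 5 that were matched, endothelial markers between 70.7 and 635, cholangiocyte markers between 6.31 and 64.9 and lymphocyte markers between 4.94 and 15.6 per kb. The 4 red cell genes were listed at 0, as were 6743 genes of the table in all. These zeros were not checked against the reads, so they were not taken as absence of blood.

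**Figure D4:**
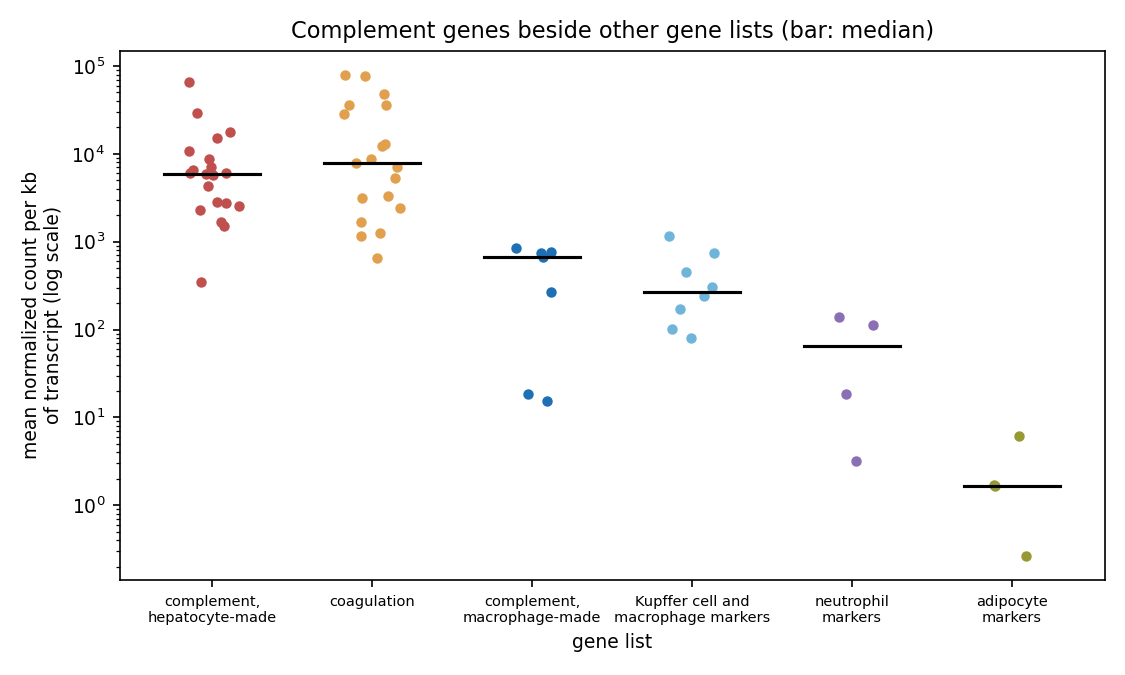
Mean normalized count per kb of transcript (vertical, log scale) of the complement genes by source beside coagulation genes and markers of Kupffer cells and macrophages, neutrophils and adipocytes (horizontal), with 1 point per gene and a bar at the median. The medians are 5977 for hepatocyte-made complement, 7824 for coagulation, 676 for macrophage-made complement and 270 for Kupffer cell and macrophage markers.

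Hepatocyte-made complement genes were also set beside 19 coagulation genes, the other large group of plasma proteases and inhibitors from hepatocytes. The coagulation median was 7824 per kb, 1.31 times the complement median, and 6 of the 20 complement genes were above it. *C3* was 1.35 times as high as *Fgb*, the lowest of the fibrinogen chains per kb of transcript. With the coding length *C3* was 0.526 times as high as *Fgb*. The other chains, *Fga* and *Fgg*, were above *C3* per kb of transcript, at 79432.5 and 76263.3. With merged exons *C3* (65401.5 per kb) lay between *Fgg* (63437.3) and *Fga* (68269.7). Undivided, *C3* was above all the chains, with a mean normalized count of 336360 against 205492 for *Fga*, 184798 for *Fgb* and 132774 for *Fgg*. The coagulation genes took 3.19% of all mean normalized counts and 16 of 19 were in the top 10%.

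Of 21 further complement genes outside the list, 18 were above the minimum and 8 were in the top 10%. *Vtn* (vitronectin, a fluid-phase inhibitor of the terminal complex) had 42195 per kb, 1.43 times the level of *Clu*, and 2.33 times with merged exons. *C1s1*, the partner of C1r, had 5115 per kb, 2.25 times the level of *C1ra*. The Kupffer cell receptor *Vsig4* had 458 per kb, and *C1qa* was 1.83 times higher. The 3 genes at or below the minimum were *C1s2*, *Cr2* and *Fcnb*, named after their values were seen, with mean normalized counts of 3.42, 4.83 and 0.322.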

How the data were processed

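Hepatic mRNA libraries of 3 WT and 3 *Pai-1*+/- mice were sequenced by the authors as 75-base single-end reads, aligned to mm10 with STAR and compared with DESeq2 in the RNA Express BaseSpace application. The labels also name HOMER, and versions, annotation and strand setting are not given in the sources used here. The signal used is a deposited mean per gene, pooled by the authors over both genotypes after scaling counts with size factors, and it sums to 30045982 over 24421 genes. The deposited fold changes, standard errors, statistics and p-values hold the authors' own comparison and were not used. The 6 columns of counts per animal matched no sample label and were not used, so the planned edgeR quasi-likelihood test was not run, and there are no values per library, no errors and no permutations.

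Levels were divided by the longest coding transcript (else the longest) of GENCODE M21 (GRCm38, the assembly of mm10), matched by symbol for 96.4% of the 12971 genes above a mean of 10. Percentiles are over these matched genes. Shared 75-base windows were counted in the GENCODE transcripts on both strands. Promoters came from RefSeq (GRCm38.p6), taking the start nearest to the GENCODE transcript. Members, sources and lists were chosen with earlier results of these data known, and the motifs, the pairs of genes compared and the printed promoters after the levels were seen. All members are named, and other genes come from the fixed lists or are genes with which members can share reads. The targeted gene is not reported here. Functions were tested on simulated data. Python 3.11.15, NumPy 2.4.6, pandas 2.3.3 and Matplotlib 3.10.9 were used.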

Additional observations from a re-analysis of the deposited data

How the results depend on the processing

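The pooled means have no error, so settings could be compared by size only. The share of all counts in hepatocyte-made genes, 2.25%, was 0.820% without *C3*, *Clu*, *Serping1* and *C1ra*, which several cell types make, and 1.35% when the 10 highest genes, *C3* among them, were left out of both the sum and the total. The macrophage-made share, 0.0136%, was 0.00861% for the C1q chains alone and 0.0163% without the 10 highest genes in the total. The ratio of the medians, 8.84, was 10.1 with merged exons, 7.76 with coding length and 13.03 without division by length. Without the genes marked as made by several cell types it was 8.66. In a setting chosen after seeing the data, it was 8.92 without genes that share over 10% of their windows. The C1q chains differed 1.14-fold, and 1.83-fold with merged exons, 1.10-fold with coding length and 1.07-fold undivided. The C8 chains differed 1.53-fold, and 1.73-fold, 2.48-fold and 3.43-fold in the same order. The median percentile, 93.7, was 96.6 over all genes of the table. A minimum of 100 left 28 of 33 genes and a minimum of 1 left 33. The genotype comparison and its alternatives (other normalization, DESeq2, no filter, each replicate left out) were not run. No paired analysis was possible because the count columns carry animal numbers and not the replicate numbers of the labels.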
